A study of Mus musculus with 16 samples.

Results

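RNA of 9 complement genes was followed in engrafted brain macrophages and host microglia of bone marrow chimeras, at rest and after a peripheral injection of lipopolysaccharide (LPS). The genes were the 3 chains of C1q (C1qa, C1qb and C1qc), the central component C3, C4b, factor B (Cfb), properdin (Cfp) and the anaphylatoxin receptors C3ar1 and C5ar1. They were found by symbol in the deposited table, which held all 9 of them among 24411 genes. The study asked whether macrophages that come from a bone marrow graft differ from the microglia that the brain already had, and whether both answer a challenge in the same way.

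Complement is a cascade of plasma and tissue proteins that tags particles for uptake and recruits immune cells. The classical pathway starts with C1q and goes on through C4 and C2, the alternative pathway amplifies through factor B and properdin, and both meet at C3. Cleavage of C3 and C5 releases small peptides that act through C3ar1 and C5ar1. In the brain, microglia are a main source of C1q, and C1q and C3 are known for tagging synapses that microglia remove.

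The recipients were wild type C57BL/6J mice, irradiated at 6 weeks of age with 950 cGy, and the donor marrow was wild type and congenic, carrying CD45.1. Per the labels, mice 1 to 4 received 2.5 mg/kg LPS 12 h before sorting and mice 5 to 8 were controls without an LPS dose. The methods place the challenge 9 months after transplantation, and the labels name both 3.5 and 9 months for all libraries alike. From each of the 8 brains, cells negative for Ly6C/G and positive for CD11b were sorted by low CD45.1 (engrafted cells) or low CD45.2 (host microglia), which gave 16 libraries in 4 groups of 4. Host microglia had been irradiated and engrafted cells descended from marrow that had not, so that origin and irradiation cannot be told apart in these libraries. The paper reports that engrafted transcriptomes differed as well from microglia of the same age without irradiation. Such microglia are not among the 16 libraries.

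Values are normalized reads (CPM), which is the count scaled to a library of 1000000 reads with factors set over the 16 libraries. Each library held 395283 to 1203597 reads on genes. All 10 microglia markers of a fixed list were read in every group, with a sum of 30947 to 33360 CPM in resting host microglia, 16608 to 17704 CPM in host microglia after LPS, 18279 to 20388 CPM in resting engrafted cells and 6186 to 8005 CPM in engrafted cells after LPS. A gene was called when edgeR's quasi-likelihood test gave an adjusted p below 0.05 and an absolute log2 fold change above 1. Of the 9 genes, 4 were called between engrafted cells and host microglia at rest (3 higher and 1 lower in engrafted cells, 8 tested), where 11% of all genes tested were called (6.25% higher and 4.73% lower). After LPS, 5 of 9 were called in this comparison (3 higher, 2 lower), beside 11.1% of all genes (6.73% higher, 4.34% lower). In response to LPS, 5 of 9 were called in engrafted cells (4 higher, 1 lower) and 3 of 8 in host microglia (all higher), beside 21.5% of all genes in engrafted cells (10.2% higher, 11.3% lower) and 18% in the host (7.66% higher, 10.4% lower). The response to LPS differed between the populations for 4 of 9 (2 higher and 2 lower in engrafted cells), beside 4.95% of all genes (2.45% and 2.5%). Cfb, 1 of the 2 higher, passed the filter of this fit only through engrafted cells after LPS, and held 1 to 9 reads per library elsewhere. The median log2 fold change of the members was 0.22, -0.22, 0.48 and 0.55 in these 4 comparisons, whereas that of all genes tested lay between -0.01 and 0.02. Comparisons that use the same libraries are not independent of each other.

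**Figure D1:**
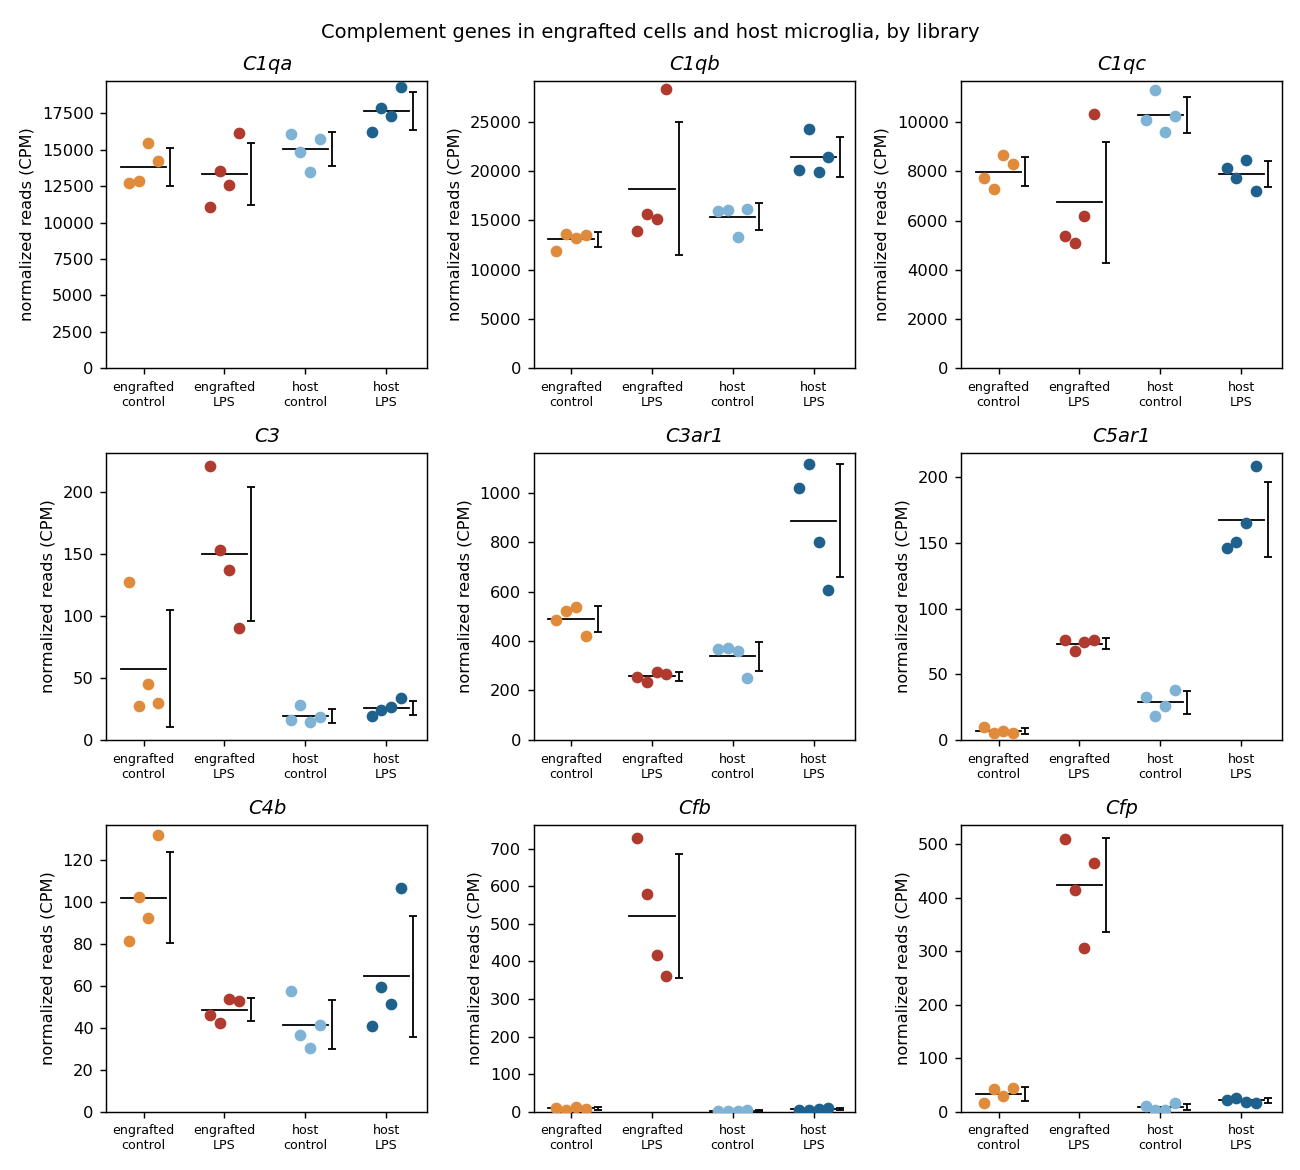
Normalized reads (CPM, linear axes from 0) of the 9 complement genes in each of the 16 libraries, by group. Points are libraries in order of mouse number, lines are group means and bars are 1 SD (n = 4). Cfb and Cfp stand at 362 to 727 and 306 to 509 CPM in engrafted cells after LPS and at or below 44.5 CPM in all other libraries.

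**Figure D2:**
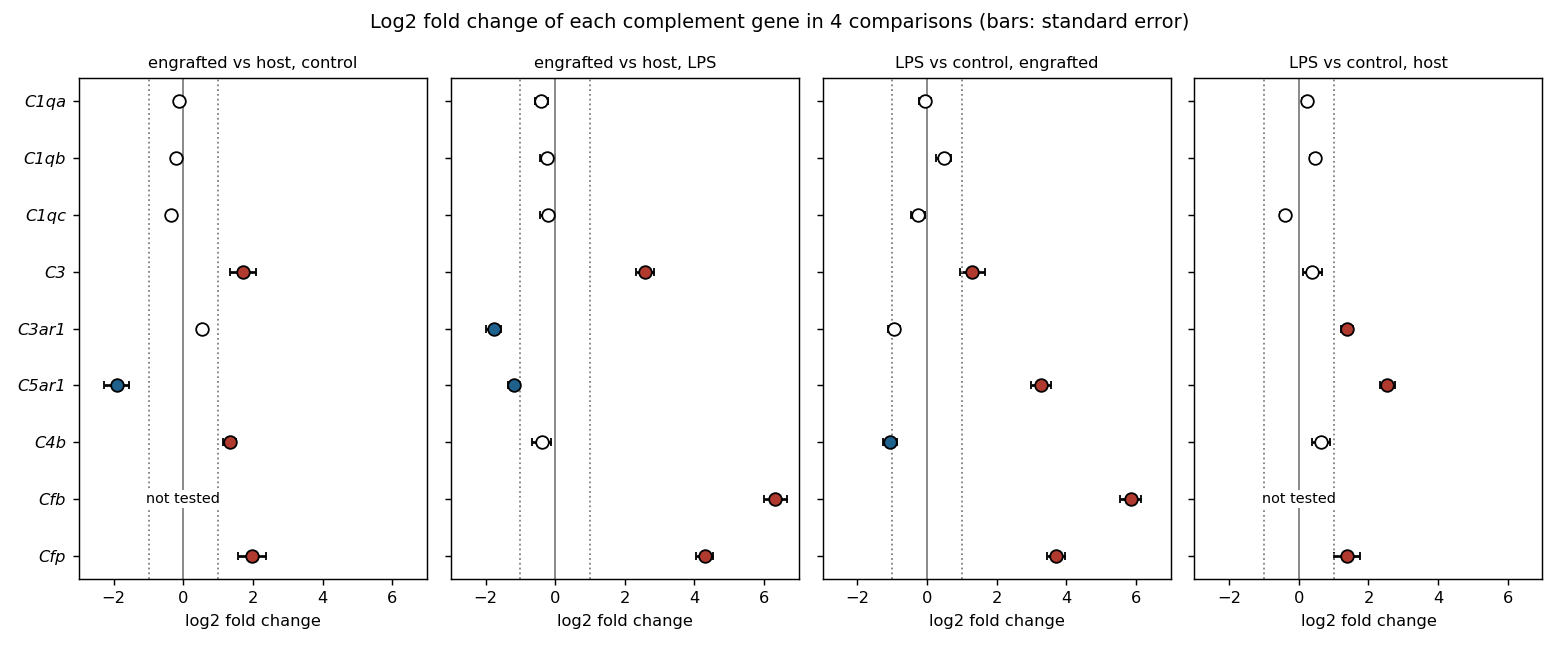
Log2 fold change with its standard error for each gene in 4 comparisons. Red points were called higher, blue points lower, open points were not called, and dotted lines mark a log2 fold change of 1 in either direction. Cfb had too few reads for the test in 2 of the comparisons. C3ar1 lies right of 0 between resting populations (0.55) and left of 0 after LPS (-1.77).

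The genes of the 3 C1q chains were not called in any comparison. Their reads made up 3.29 to 3.65% of all reads on genes in resting engrafted cells, 2.86 to 4.75% in engrafted cells after LPS, 3.88 to 4.40% in resting host microglia and 4.60 to 5.06% in host microglia after LPS. C1qb (NM_009777, chr4:136436061-136442092), C1qc (NM_007574, chr4:136445717-136448829) and C1qa (NM_007572, chr4:136451831-136454759) lie side by side on the minus strand of mm9, with gaps of 3624 and 3001 bases, and each has 3 exons in the GENCODE annotation of that build. The 3 chains assemble into 1 protein. In bulk samples such as these, fewer cells of a type and less RNA per cell cannot be told apart.

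C1qa stood at 12685, 12847, 15455 and 14254 CPM in resting engrafted cells of mice 5 to 8 and at 16104, 14844, 13479 and 15766 CPM in host microglia of the same mice. The ranges overlapped, and the log2 difference was -0.11 ± 0.10 (SE, adjusted p = 0.43 by edgeR's quasi-likelihood test, corrected after Benjamini-Hochberg). After LPS, engrafted cells of mice 1 to 4 held 11036, 13525, 12609 and 16116 CPM and host microglia 16207, 17854, 17302 and 19302 CPM. The host was higher in 4 of 4 mice, by 1.20 to 1.47 times, and every host library exceeded every engrafted one, as for 6 of 9 members and 20.7% of all genes in this comparison, but the test did not pass (-0.40 ± 0.18, adjusted p = 0.15 by edgeR).

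C1qb and C1qc, which are neighbours in the genome, shifted in opposite directions with LPS in host microglia, although both changes were under the fold threshold. C1qb was at 15933, 16071, 13311 and 16187 CPM at rest and at 20061, 24310, 19903 and 21399 CPM after LPS, without overlap (0.47 ± 0.14, adjusted p = 0.0089 by edgeR). C1qc was at 10090, 11319, 9583 and 10231 CPM at rest and at 8127, 7748, 8468 and 7218 CPM after LPS, again without overlap (-0.40 ± 0.13, adjusted p = 0.021). Libraries that do not overlap were found for 35.7% of all genes in this comparison, and for 6 of the 8 members tested.

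In engrafted cells, C1qb was at 11915, 13659, 13197 and 13496 CPM at rest and at 13880, 15592, 15114 and 28295 CPM after LPS. The library of mouse 4, the shallowest of all with 395283 reads, stood apart from the other 3, and the change was not called (0.48 ± 0.20, adjusted p = 0.071). C1qc went from 7747, 7282, 8651 and 8292 CPM to 5357, 5079, 6169 and 10343 CPM. Mouse 4 was again the highest, the ranges overlapped because of it, and the difference did not pass the test (-0.25 ± 0.21, adjusted p = 0.35 by edgeR). In that library the red blood cell markers summed to 4973 CPM, against 2.56 to 55.4 CPM in the other 3. The choroid plexus markers summed to 1342 CPM, against 432 to 868 CPM. In the resting engrafted library of mouse 8 these sums were 3217 and 2335 CPM, with C1qb at 13496 CPM. The part of such cells was not tested. Without mouse 4 the values were 0.20 and -0.51, with adjusted p of 0.22 and 0.0037, neither of them past the fold threshold.

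A ratio of 2 genes within a library does not depend on how libraries are scaled. There were 1.54, 1.88, 1.53 and 1.63 C1qb reads per C1qc read in resting engrafted cells and 2.59, 3.07, 2.45 and 2.74 after LPS. Resting host microglia gave 1.58, 1.42, 1.39 and 1.58, and host microglia after LPS gave 2.47, 3.14, 2.35 and 2.96. In both populations all 4 libraries after LPS lay above all 4 resting ones, mouse 4 included. The ratio was chosen after the values of the genes had been seen and was not tested. Between resting populations, C1qc was lower in engrafted cells than in host microglia in 4 of 4 mice, by 1.11 to 1.55 times (-0.36 ± 0.09, adjusted p = 0.0055 by edgeR, under the fold threshold). With all 16 libraries in 1 fit the difference was -0.36 ± 0.17 and did not pass (adjusted p = 0.13 by edgeR). The LPS responses of the 3 chains were not found to differ between the populations (interaction log2 values of -0.29 ± 0.19, -0.0026 ± 0.24 and 0.13 ± 0.24 for C1qa, C1qb and C1qc, lowest adjusted p = 0.44 by edgeR).

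**Figure D3:**
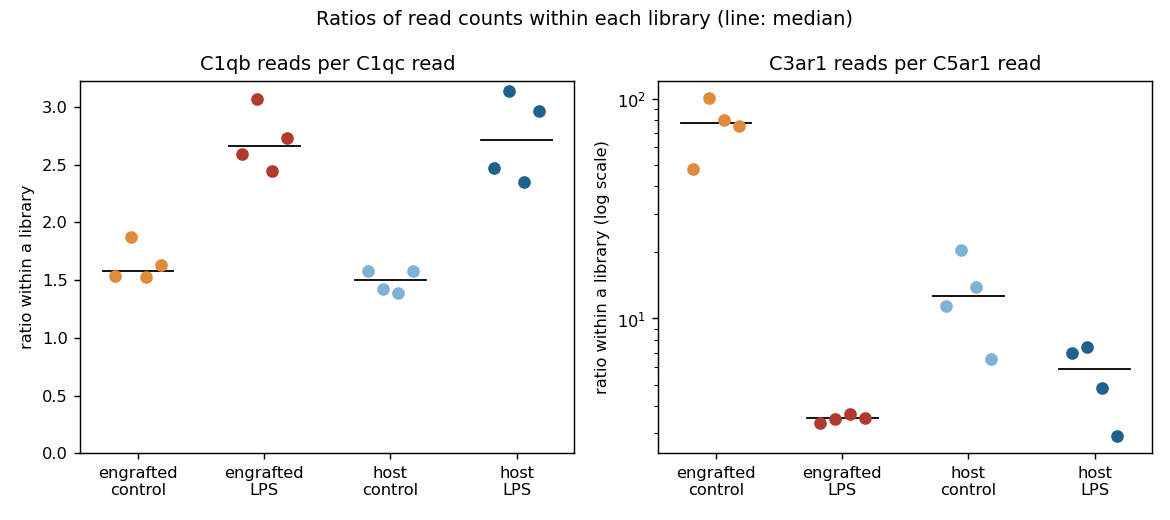
Reads of C1qb per read of C1qc (left, linear axis from 0) and of C3ar1 per read of C5ar1 (right, log axis) within each library, with lines at group medians. The left ratio lies at 1.39 to 1.88 in all resting libraries and at 2.35 to 3.14 in all libraries after LPS. The right ratio spans 47.9 to 101 in resting engrafted cells, where C5ar1 had 3 to 10 reads per library, and 3.33 to 3.69 in engrafted cells after LPS.

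C3 (NM_009778, chr17:57343390-57367559), the protein at which the pathways meet, was higher in engrafted cells in both states, although the resting call rested on 1 library. Resting engrafted cells of mice 5 to 8 held 128, 27.7, 45.3 and 29.7 CPM and host microglia 16.2, 27.9, 14.8 and 18.2 CPM. Engrafted cells exceeded the host in 3 of 4 mice and the ranges overlapped, with mouse 5 far above the others (1.71 ± 0.37, adjusted p = 0.00086 by edgeR). In that library the fibroblast and mural markers summed to 286 CPM, beside 6.70 to 51.9 CPM in the other 3 resting engrafted libraries, and Pdgfrb and Acta2 were at 0 in all 4. The part of such cells in the C3 reads was not tested. Without this library the difference was 0.84 ± 0.31 and no longer called (adjusted p = 0.044).

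After LPS, C3 stood at 221, 153, 137 and 90.5 CPM in engrafted cells of mice 1 to 4 and at 19.2, 24.4, 26.2 and 33.6 CPM in host microglia. Engrafted cells were higher in all 4 mice, by 2.70 to 11.5 times, without overlap (2.59 ± 0.26, adjusted p = 1.2e-06 by edgeR). C3 rose with LPS in engrafted cells (1.31 ± 0.35, adjusted p = 0.0063), and by 2.15 on the log2 scale when the resting library of mouse 5 was left out. In host microglia the change was 0.39 ± 0.27 (adjusted p = 0.26). The interaction of population and challenge was not called (0.91 ± 0.53, adjusted p = 0.37 by edgeR). When 1 library was left out at a time, it ranged from 0.67 to 1.77. Among these fits it was called only without the resting engrafted library of mouse 5 (1.77 ± 0.42, adjusted p = 0.011 by edgeR).

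Factor B and properdin, the amplifying arm of the alternative pathway, showed the largest fold changes among the 9 genes, in engrafted cells after LPS. Factor B is the protease component of the alternative C3 convertase, and properdin stabilizes that convertase. Cfb (NM_008198, chr17:34993319-34999459) rose from 9.12, 5.19, 13.4 and 7.41 CPM in mice 5 to 8 to 727, 579, 416 and 362 CPM in mice 1 to 4, a 59.3-fold difference of the means (5.85 ± 0.31, adjusted p = 3.2e-11 by edgeR). All 4 libraries after LPS were above all resting ones by a wide margin.

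Host microglia had few Cfb reads, 1 to 5 per library at rest (1.47, 0.962, 3.12 and 5.05 CPM) and 4 to 7 after LPS (4.53, 5.86, 5.95 and 9.79 CPM). These counts were too low for the fit across genes, and the 2 host groups overlapped (two-sided exact permutation test, p = 0.057). Within each challenged mouse, engrafted cells held 37.0 to 161 times the host level (6.33 ± 0.32, adjusted p = 3.2e-10 by edgeR). At rest, engrafted cells were higher in 4 of 4 mice, by 1.47 to 6.19 times, at 3 to 9 reads per library (exact permutation p = 0.029, the smallest that 4 against 4 allows). With the filter on low counts removed, edgeR gave 1.60 ± 0.69 for this resting difference (adjusted p = 0.095), which was not called, whereas the fit of all 16 libraries gave 1.64 ± 0.52 (adjusted p = 0.024), which was called. The interaction of population and challenge was 4.69 ± 0.76 (adjusted p = 0.00022 by edgeR). Cfb entered this fit, and the fit of all 16 libraries, only through its reads in challenged engrafted cells. The host side of the interaction rests on the 1 to 5 and 4 to 7 reads per library given above.

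Cfb lies 87 bases from C2, which has 0 to 8 reads per library, and a protein coding gene model of the GENCODE annotation overlaps it on the same strand, so that reads of both models cannot be told apart.

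Cfp (NM_008823, chrX:20502580-20508681) was at 17.2, 43.3, 28.5 and 44.5 CPM in resting engrafted cells and at 509, 414, 306 and 464 CPM after LPS. The groups were far apart, and Cfp rose 12.7-fold (3.71 ± 0.26, adjusted p = 1.4e-09 by edgeR). In host microglia it went from 10.3, 3.85, 3.90 and 16.2 CPM, or 4 to 16 reads per library, to 22.6, 26.4, 19.0 and 16.8 CPM. This smaller rise was also called (1.38 ± 0.38, adjusted p = 0.0060 by edgeR), with the highest resting and the lowest challenged library close to each other. Engrafted cells were higher than the host in every mouse, by 1.67 to 11.2 times at rest (1.97 ± 0.41, adjusted p = 0.00057) and by 15.7 to 27.6 times after LPS (4.30 ± 0.24, adjusted p = 1.0e-09). The response differed between the populations (interaction 2.33 ± 0.50, adjusted p = 0.0045 by edgeR). This call was lost without the resting host library of mouse 8, which had the highest Cfp of its group (1.76 ± 0.56, adjusted p = 0.078).

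**Figure D4:**
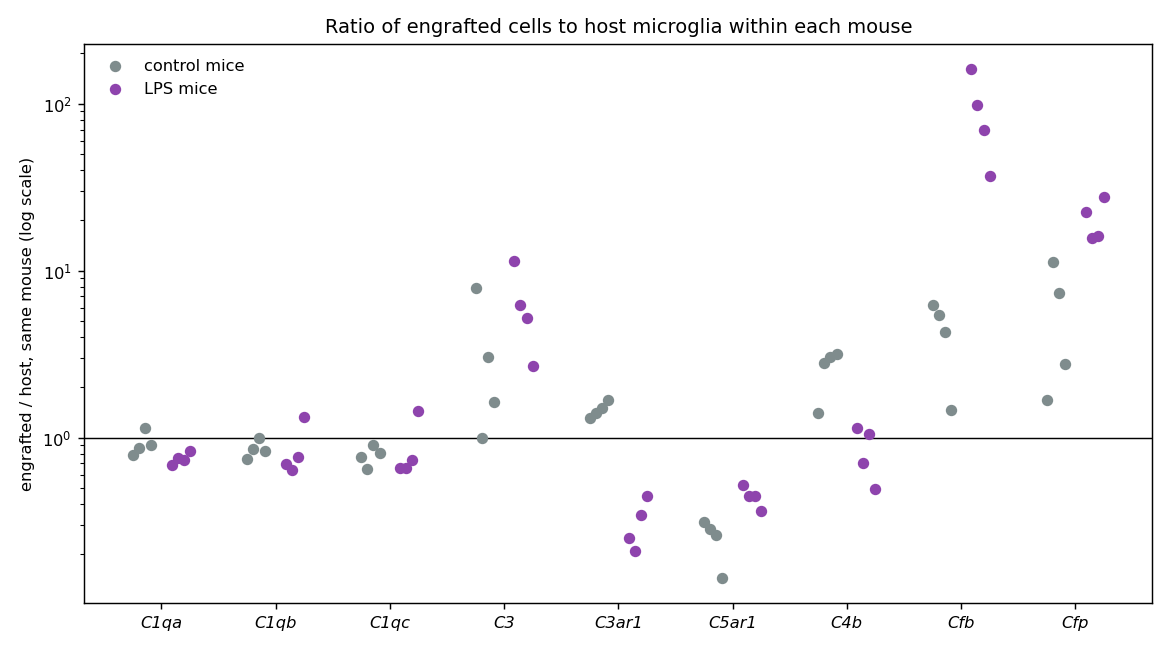
Ratio of engrafted cells to host microglia within each mouse (log axis, the line marks equal values), for 4 control and 4 LPS mice per gene. The Cfb ratios after LPS reach from 37.0 to 161, the C3ar1 ratios lie above 1 in control mice and below 1 in LPS mice, and the C5ar1 ratios lie below 1 in all 8 mice.

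Most monocyte markers moved in the same libraries as Cfb, Cfp and C3. All 8 markers of the list had reads in engrafted cells, and 6 of them were higher in every challenged than in every resting engrafted library, whereas Ccr2 went the other way, from 85.1 to 234 CPM at rest to 31.3 to 61.4 CPM after LPS. In engrafted cells their sum was 457 to 556 CPM at rest and 1471 to 2568 CPM after LPS. Ly6c2, whose product belongs to the antigens that the sort excluded, was at 22.2 to 40.2 CPM in engrafted cells at rest and at 429 to 860 CPM after LPS. In host microglia the list summed to 65.4 to 157 CPM at rest, with Chil3 at 0, and to 29.4 to 64.3 CPM after LPS. The part of monocytes in the engrafted values was not tested. Much of the host sum was Nr4a1, and without it the list summed to 9.35 to 25.2 CPM in the resting host and 11.3 to 25.2 CPM after LPS. Neutrophil markers summed to 276 to 1277 CPM in resting engrafted cells, to 505, 49.4, 404 and 444 CPM in engrafted cells of mice 1 to 4 and to at most 14.7 CPM in the host. Their part was not tested either.

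**Figure D5:**
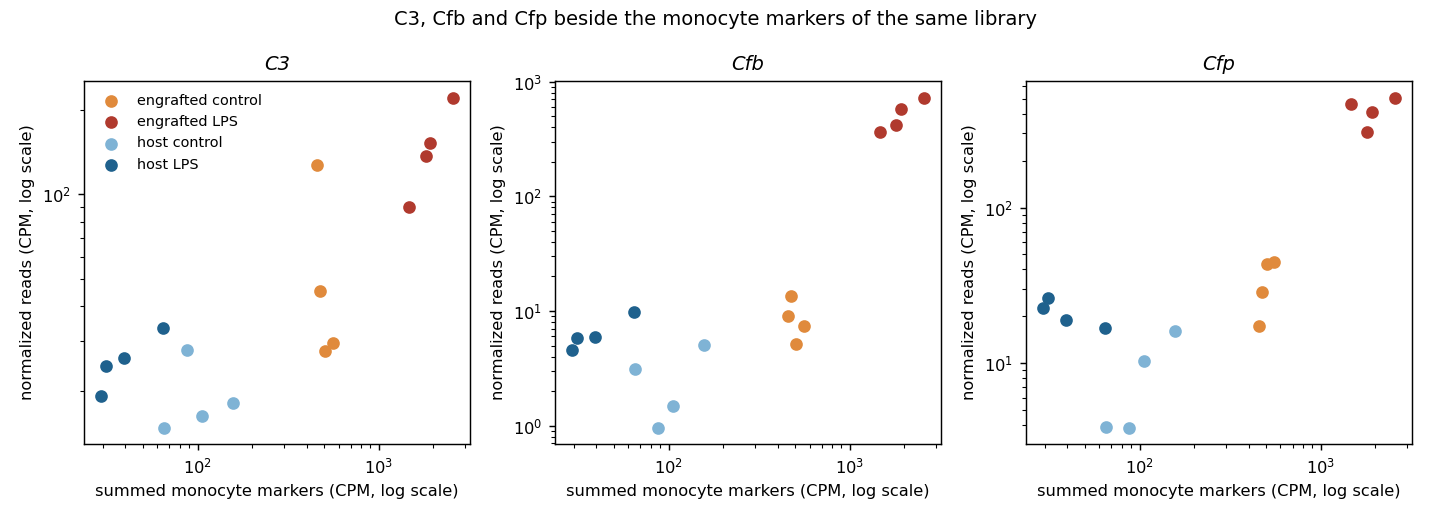
C3, Cfb and Cfp (vertical, CPM, log axes) against the sum of 8 monocyte markers (horizontal, CPM, log axes) in each library. Engrafted cells after LPS stand apart on both axes, at a marker sum of 1471 to 2568 CPM, and in the C3 panel 1 resting engrafted library (mouse 5) reaches 128 CPM at a marker sum of 457 CPM.

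C3 and Cfp were called higher in engrafted cells both at rest and after LPS, which is why their promoters are shown. RefSeq promoter windows were matched for 6 of the 9 genes (C1qb, C1qc, C3, C3ar1, C5ar1 and Cfp), on build GRCm38.p6, and the 250 bases before the start are printed 5′ to 3′ on the strand of the gene, which is minus for all of them. The window of C3 is chr17:57228137-57228386 and that of Cfp chrX:20931556-20931805. Capitals mark matches to any of 5 motifs, written with N for any base and searched on both strands.
C3: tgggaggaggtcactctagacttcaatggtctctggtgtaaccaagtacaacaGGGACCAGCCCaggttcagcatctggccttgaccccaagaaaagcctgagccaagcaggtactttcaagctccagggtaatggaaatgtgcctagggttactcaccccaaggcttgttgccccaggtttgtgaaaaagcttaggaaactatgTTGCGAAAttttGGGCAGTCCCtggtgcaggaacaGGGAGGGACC
Cfp: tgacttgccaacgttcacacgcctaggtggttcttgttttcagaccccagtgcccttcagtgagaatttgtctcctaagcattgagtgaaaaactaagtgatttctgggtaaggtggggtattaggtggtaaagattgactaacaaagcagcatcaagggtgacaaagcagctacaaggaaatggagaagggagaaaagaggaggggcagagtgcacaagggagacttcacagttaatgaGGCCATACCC
The motifs were the kappaB form (GGG, any 5 bases, CC), the C/EBP form TTGCNNAA, the interferon response element (GAAA, any 2 bases, GAAA), the GAS form TTCNNNGAA and the PU.1 form GAGGAAG. C3 held kappaB matches that begin 197, 33 and 10 bases before the start and a C/EBP match at 45 bases, and Cfp held 1 kappaB match at 10 bases. Matches of the kappaB form to both strands overlap at the first 2 positions in C3. From 250 bases before to 50 after the start, the kappaB form was in 5 of the 6 member promoters and in 50.8% of 32851 promoters, the C/EBP form in 1 member (C3) and 10.8% of promoters, and the PU.1 form in 1 member (C1qc) and 13.6%. The interferon and GAS forms were in none of the 6 windows and in 3.44% and 8.30% of all promoters. These matches describe letters and are not binding sites.

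C4b (NM_009780, chr17:34865326-34880842), a component of the classical pathway downstream of C1q, was higher in engrafted cells at rest and not after LPS. Resting engrafted cells held 81.1, 102, 92.2 and 132 CPM and host microglia 57.5, 36.6, 30.4 and 41.4 CPM. Engrafted cells were higher in 4 of 4 mice, by 1.41 to 3.18 times, without overlap (1.33 ± 0.20, adjusted p = 8.9e-06 by edgeR). After LPS the values were 46.2, 42.1, 53.7 and 52.5 CPM in engrafted cells and 40.8, 59.6, 51.2 and 106 CPM in the host, which overlapped (-0.39 ± 0.27, adjusted p = 0.39).

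C4b fell with LPS in engrafted cells, with every challenged library below every resting one (-1.06 ± 0.21, adjusted p = 0.00038 by edgeR). The fall lay close to the fold threshold and was not called without the resting library of mouse 8 (-0.92) or the challenged library of mouse 2 (-0.98). In host microglia the change was 0.64 ± 0.26 (adjusted p = 0.053), with mouse 4 highest. The responses differed between populations (interaction -1.72 ± 0.35, adjusted p = 0.0027). C4b is near-identical to C4a in parts: 25.5% of the windows of 50 bases in the last 500 bases of its transcript occur in C4a, which had 0 to 6 reads per library, so that C4b values are uncertain as far as such reads were assigned or dropped.

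Markers of other cell types were set beside C4b. The choroid plexus markers summed to 327, 1178, 595 and 2335 CPM in resting engrafted cells of mice 5 to 8 and to 557, 1653, 951 and 3540 CPM in host microglia of challenged mice 1 to 4, which is the order of C4b in both groups. In the other groups they summed to 451, 868, 432 and 1342 CPM (challenged engrafted cells) and to 105, 293, 372 and 989 CPM (resting host), where the order differed from that of C4b. The 8 astrocyte markers summed to 18.4 to 105 CPM in engrafted cells and to 184 to 350 CPM in the host, mostly Slc1a3 in the host, with Gfap at or below 1.47 CPM in every library. The 8 oligodendrocyte markers summed to 154 to 237 CPM at rest and to 85.0 to 136 CPM after LPS over both populations, mostly Mbp, Mag and Cnp, with Mog at or below 1.73 CPM. The part of these cells in the C4b reads was not tested.

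C3ar1 (NM_009779, chr6:122797158-122806175), the receptor for the C3 peptide, responded to LPS in opposite directions. In host microglia it rose from 369, 373, 359 and 251 CPM to 1019, 1117, 801 and 606 CPM, without overlap (1.38 ± 0.18, adjusted p = 3.1e-06 by edgeR). In engrafted cells it went from 486, 523, 536 and 419 CPM to 253, 235, 274 and 268 CPM, also without overlap. This decrease just missed the fold threshold (-0.94 ± 0.17, adjusted p = 0.00025), and it was called with library totals as scaling (-1.02) and also without the resting library of mouse 8. The interaction of population and challenge was -2.33 ± 0.26 (adjusted p = 9.9e-07 by edgeR).

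The order of the populations was opposite in the 2 states. At rest, engrafted cells had more C3ar1 than the host in 4 of 4 mice, by 1.32 to 1.67 times (0.55 ± 0.14, adjusted p = 0.0037, under the fold threshold). After LPS the host had more in 4 of 4 mice, by 2.26 to 4.76 times (-1.77 ± 0.21 for engrafted against host, adjusted p = 8.5e-06 by edgeR).

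C5ar1 (NM_001173550, chr7:16832094-16844687), the receptor for the C5 peptide, rose with LPS in both populations and was lower in engrafted cells in all 8 mice. Engrafted cells went from 10.1, 5.19, 6.70 and 5.56 CPM, or 3 to 10 reads per library, to 75.9, 67.4, 74.2 and 75.9 CPM (3.28 ± 0.29, adjusted p = 3.0e-08 by edgeR). Host microglia went from 32.4, 18.3, 25.7 and 38.4 CPM to 146, 150, 165 and 208 CPM (2.54 ± 0.21, adjusted p = 3.5e-09). None of these 4 groups overlapped with another, and the order from lowest to highest was resting engrafted, resting host, challenged engrafted and challenged host. Within mice the host was 3.20 to 6.90 times higher at rest (-1.92 ± 0.36 for engrafted against host, adjusted p = 0.00019) and 1.92 to 2.75 times higher after LPS (-1.18 ± 0.18, adjusted p = 0.00011). The response itself was not found to differ between populations (interaction 0.73 ± 0.37, adjusted p = 0.28 by edgeR).

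The ratio of C3ar1 reads to C5ar1 reads was taken within each library and compared between groups. This ratio was 47.9, 101, 80.0 and 75.3 in resting engrafted cells, where C5ar1 had only 3 to 10 reads per library. In engrafted cells after LPS it was 3.33, 3.48, 3.69 and 3.54. In host microglia it was 11.4, 20.4, 14.0 and 6.55 at rest and 6.98, 7.42, 4.84 and 2.91 after LPS. Resting engrafted libraries thus lay above all others, and the host groups overlapped. The ratio was chosen after the values had been seen and was not tested.

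The promoters of both receptors are shown because their genes moved in opposite directions in engrafted cells and in the same direction in the host. The windows are chr6:122856158-122856407 and chr7:16259339-16259588 on GRCm38.p6, minus strand, with capitals as above.
C3ar1: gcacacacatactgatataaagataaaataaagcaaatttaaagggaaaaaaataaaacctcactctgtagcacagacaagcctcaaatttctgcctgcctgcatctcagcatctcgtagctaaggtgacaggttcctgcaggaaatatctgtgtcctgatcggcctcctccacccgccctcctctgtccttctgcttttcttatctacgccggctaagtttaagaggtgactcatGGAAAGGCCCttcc
C5ar1: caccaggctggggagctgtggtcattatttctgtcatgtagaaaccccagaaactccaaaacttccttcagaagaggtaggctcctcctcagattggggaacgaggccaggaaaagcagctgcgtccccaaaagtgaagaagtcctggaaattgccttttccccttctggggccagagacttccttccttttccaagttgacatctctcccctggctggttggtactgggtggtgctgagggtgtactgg
C3ar1 held 1 kappaB match that begins 14 bases before the start, and C5ar1 held no match to any of the 5 motifs in these 250 bases.

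Other genes of the complement system came from a list of 49, all of them in the table. Of these, 17 had no read in any library, among them the terminal components C7, C8a, C8b and C9 and the factor D gene Cfd, and 37 in all were tested in no comparison. At rest, 1 of 11 tested genes was called higher in engrafted cells and 3 lower, after LPS 2 and 2 of 11. In response to LPS, 3 of 11 rose and 2 fell in engrafted cells, and 1 of 10 rose and 2 fell in host microglia. Over all genes, 11% and 11.1% were called between populations, and 21.5% and 18% with LPS. The median log2 fold change of the list in these 4 comparisons was -0.63, -0.30, 0.39 and -0.03.

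The genes of complement receptor 3, which binds a fragment of C3, were Itgam and Itgb2. Itgam, which encodes the CD11b used for the sort, was lower in engrafted cells at rest (305 against 699 CPM, -1.19 ± 0.12, adjusted p = 3.0e-08 by edgeR) and rose with LPS in them (1.66 ± 0.18, adjusted p = 4.6e-07). In the host the change of Itgam was 0.57 ± 0.13 and under the fold threshold, and the responses differed (interaction 1.08 ± 0.21, adjusted p = 0.0016). Itgb2 rose in engrafted cells too (1.13 ± 0.17, adjusted p = 3.7e-05), with 0.42 ± 0.16 in the host. For Itgb2 the interaction was not called (0.69 ± 0.23, adjusted p = 0.081 by edgeR). Its resting level was lower in engrafted cells (mean 277 against 556 CPM), without overlap but just under the fold threshold (-0.998 ± 0.132, adjusted p = 1.4e-06). After LPS the populations overlapped for Itgb2 (mean 605 against 752 CPM, -0.30 ± 0.20, adjusted p = 0.34). Itgax, whose product pairs with that of Itgb2 in complement receptor 4, was lower in engrafted cells at rest (-1.11 ± 0.30, adjusted p = 0.0072 by edgeR). After LPS it was lower too (-1.71 ± 0.41, adjusted p = 0.0067 by edgeR). Itgax had only 10 to 12 reads per library in resting engrafted cells and 1 to 11 after LPS, and the resting populations overlapped.

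C5ar2, the second receptor for the C5 peptide, moved opposite to C5ar1. It fell with LPS from a mean of 35.1 to 11.8 CPM in engrafted cells (-1.59 ± 0.37, adjusted p = 0.0019 by edgeR) and from 45.2 to 21.3 CPM in host microglia (-1.11 ± 0.24, adjusted p = 0.00080). After LPS, C5ar2 had only 4 to 17 reads per library in engrafted cells and 15 to 24 in the host. Cd93, first described as a C1q receptor, was at a mean of 121 CPM in resting engrafted cells and 0.737 CPM in the resting host (adjusted p = 5.6e-14 by edgeR). It had 69 to 105 reads per library in the former and 0 to 2 in the latter, and passed the filter only through the engrafted libraries. Cd93 fell with LPS in engrafted cells (-1.08 ± 0.23). C1qbp, which encodes a C1q binding protein found mainly in mitochondria, rose with LPS in engrafted cells (1.24 ± 0.20) and in the host (1.05 ± 0.19). C1rl, a relative of the C1r protease, fell in the host after LPS (-1.19 ± 0.25), to 9 to 20 reads per library. Its change was 0.40 ± 0.27 in engrafted cells, and its responses differed (interaction 1.58 ± 0.35, adjusted p = 0.0062 by edgeR).

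The genes with the most similar pattern were taken by Pearson's r of log2(CPM + 1) over the 16 libraries, out of 3795 genes whose mean reached 50 CPM. These values are descriptions, since libraries share groups and mice. Cfb was most like Slpi (r = 0.98), Hp (0.98) and Irf7 (0.97), and Cfp was most like Irf7 (0.96), Arg1 (0.96) and Hn1 (0.95). Slpi, Hp and Arg1 reached a mean of 50 CPM only through engrafted cells after LPS (374, 2191 and 423 CPM). They were at or below 20.1 CPM in the means of the other groups, so that these r rest mainly on 1 high group. Slpi encodes a protease inhibitor, Hp encodes haptoglobin and Irf7 a regulator of interferon genes. C3 was most like Plac8 (0.94), which is among the monocyte markers above, and Anxa2 (0.91), both by far highest in engrafted cells after LPS. C3ar1 was most like the chemokine gene Ccl12 (0.93) and Eif2ak2 (0.88), which encodes a kinase activated by double-stranded RNA. For C5ar1 the nearest were Cep152 (0.97) and Vapa (0.96), and for C1qb the transcription factor gene Cebpd (0.92). C1qc was most like Tmco1 (0.93) and Pdgfa (0.93), C1qa most like Smpd5 (0.83) and C4b most like Rpl23 (0.80), which encodes a ribosomal protein.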

How the data were processed

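Libraries had been made by a derivation of MARS-seq, which captures polyadenylated RNA and reads it near the 3′ end. Levels of different genes are therefore not compared here, apart from the ratios of reads within a library. Those ratios are compared between groups only, and their absolute size is not interpreted. The authors mapped the reads to mm9 with HISAT (0.1.5 in the submitters' processing notes) and assigned them with HOMER to exons of RefSeq genes in the sense direction. The deposited values are raw read counts, without normalization, and all 16 columns were used. No removal of PCR duplicates is stated, so that limits from low counts cover counting error only. A gene with no read may still have had 2.34 to 8.76 CPM, the worth of 3 reads.

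The tests were run with edgeR 4.0.16 in R 4.3.3. After a filter on low counts (minimum count 10, minimum total 15) and TMM scaling, edgeR's quasi-likelihood test was applied over all genes, with a prior count of 0.125 and adjusted p after Benjamini-Hochberg. Each fit held the 2 groups compared, and the interaction held all 16 libraries. No term for the mouse stands in the study's methods. Both libraries of a mouse come from 1 brain. Their deviations from the group means correlated with Pearson's r of 0.123, 0.0143, 0.194, 0.114, 0.0184, -0.0335, 0.0517 and 0.0769 in mice 1 to 8, and a fit with the mouse as replicate block was among the alternatives. Challenged and resting mice are different animals and allow no block. For genes with too few reads, a two-sided exact permutation test was used.

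The members, lists, motifs and tests were chosen with earlier results of these data known. All 9 members are named, and of the 49 other complement genes those called at least once with a mean of 10 CPM or more, except 1 whose results are not reported here. The 3 genes most like each member were found by r, and the text names the first or several of them. The alternatives were RLE size factors, library totals, DESeq2 1.42.0, no filter, 1 fit of all libraries, the mouse block, a prior count of 2 and leaving out each library. The tests were checked on simulated counts.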

Additional observations from a re-analysis of the deposited data

Results flagged for a closer look

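Within groups of 4 libraries, 3 values stood apart from the other libraries of their group, among 36 combinations of gene and group tested, and chance alone gives about 1 in 20. C1qb in engrafted cells of challenged mouse 4 was at 28295 CPM, above 13880 to 15592 CPM in the other 3 mice. C1qb in host microglia of resting mouse 7 was at 13311 CPM, below 15933 to 16187 CPM. C3ar1 in host microglia of resting mouse 8 was at 251 CPM, below 359 to 373 CPM.

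The LPS response differed between engrafted cells and host microglia for 4 of the 9 genes, beside 4.95% of all genes tested in the interaction (2.45% higher and 2.5% lower). By edgeR's quasi-likelihood test, adjusted over all genes, the response of engrafted cells minus that of the host was -2.33 for C3ar1 (adjusted p = 9.9e-07), -1.72 for C4b (adjusted p = 0.0027), 4.69 for Cfb (adjusted p = 0.00022) and 2.33 for Cfp (adjusted p = 0.0045), on the log2 scale. Cfb passed the filter of this fit only through challenged engrafted cells. Its host response rests on 1 to 5 reads per library at rest and 4 to 7 after LPS.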

How the results depend on the processing

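Of 691 recomputed fold changes of the 9 genes, 669 kept their direction and stayed called or not called. Of the others, 4 were no longer called, 3 became called and 15 changed sign. These 15 were all in C1q genes that were not called. A call needs both thresholds, and some of the 669 crossed the adjusted p threshold alone. Between resting populations, the adjusted p of C1qc by edgeR went from 0.0055 to 0.13 with all 16 libraries in 1 fit. With library totals, that of C1qb went from 0.080 to 0.011. After LPS, that of C1qa between populations went from 0.15 to 0.019 with library totals. The interaction of C1qb, at -0.0026, became 0.038 with RLE size factors, 0.038 with DESeq2 and 0.021 without the filter. When 1 library was left out at a time, it ranged from -0.29 to 0.11, that of C1qc from -0.15 to 0.26, and the LPS response of C1qa in engrafted cells from -0.14 to 0.037. Among the counts of called genes, the 1 gene lower after LPS in engrafted cells became 2 with library totals, which added C3ar1 (log2 fold change -1.02), and 0 to 1 when libraries were left out. The 2 genes with a higher interaction became 1 to 3. The 3 higher genes between resting populations became 2 to 3 when libraries were left out, with C3 lost at 0.84 without the resting engrafted library of mouse 5, and 4 with all 16 libraries in 1 fit, which added Cfb. With library totals the resting difference of Cfb had an exact permutation p of 0.057. Library totals moved the median of all genes between engrafted cells and host microglia after LPS by -0.15, and no call of the 9 genes in that comparison changed. With the mouse as replicate block, the count between resting populations stayed at 3 higher and 1 lower, and no call of any of the 9 genes changed between populations or in the interaction. The prior count of 2 was added after the data had been seen and changed no call. Without 1 library, the resting difference of Cfb was 4.59 to 7.33 CPM, with a p of 0.057 in each case, the smallest that 3 against 4 gives when the smaller tail is doubled. At this depth, Cfb in the host and in resting engrafted cells, and C5ar1 in resting engrafted cells, rest on 1 to 10 reads per library. Cfp in the resting host rests on 4 to 16 reads per library.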
